A study of Homo sapiens with 7 samples.

Results

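Mucins are large glycoproteins whose extracellular part is rich in serine and threonine and carries dense O-linked sugar chains. Membrane-bound mucins are anchored by a transmembrane segment and cover the apical surface of epithelia, whereas gel-forming mucins are secreted and build mucus. In glandular epithelia such as that of the prostate, MUC1 is the best known membrane-bound form. Here 10 mucin genes were looked up by gene symbol in the expression table of the DU145 prostate carcinoma line, and 5 of them (MUC1, MUC4, MUC13, MUC15 and MUC17, all membrane-bound) had a transcript cluster, a group of probes that reads a gene, assigned to that symbol alone. The only cluster of MUC20 also carried the symbols of other genes and was not used. MUC12 and MUC16, and the gel-forming mucins MUC2 and MUC5B, were not analysed here. The results therefore concern 5 genes among the 14232 genes with a cluster of their own.

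CSC were the CD44+CD24- cells of DU145, which by the study's methods were sorted and grown as floating spheroids in serum-free medium with EGF, bFGF and insulin, and they were set against parental DU145 cells, an unsorted androgen-independent line kept in medium with serum. Human exon arrays were used, 4 for CSC and 3 for DU145. Sorting, serum, growth factors and attachment differed together between CSC and DU145 cells and cannot be told apart. By the study's methods each condition had 3 replicates, whereas the table holds 4 CSC arrays. No source used here says whether one was left out, so all were kept, and none says whether the RNA samples of CSC, or of DU145 cells, were grown separately, so the p-values cover a spread that may be technical only. Values are on a log2 scale, on which a difference of 1 is a doubling, and a gene was called where its adjusted p did not exceed 0.05 and its log2 fold change was 1 or more in either direction. Array medians were 5.88 to 5.91 in CSC and 5.77 to 5.89 in DU145 cells, and the log2 fold change of CSC over DU145 had a median of 0.10 over all genes. For the genes of the sort, CD44 averaged 7.75 ± 0.52 in CSC and 8.93 ± 0.41 in DU145 cells, and CD24 averaged 8.54 ± 0.41 in CSC and 8.93 ± 0.36 in DU145 cells (SD, n = 4 and 3). Neither passed the test (log2 fold changes of -1.18 and -0.40, limma adjusted p = 0.128 and 0.449), although CD44, the marker the sort kept, was lower on all CSC arrays than on all DU145 arrays. By quantitative PCR, the study reported similar CD44 RNA in spheroids and DU145 cells, and significantly less CD24 RNA in spheroids. Of 5 epithelial markers, CDH1 and EPCAM rose, by 3.32 and 1.92 on the log2 scale, and the keratins KRT8, KRT18 and KRT19 did not pass. The mean level of the 5 was 9.19 to 9.58 on CSC arrays and 7.90 to 8.30 on DU145 arrays, and its part in the mucin results was not tested. None of 5 goblet cell markers, 3 leukocyte markers, 5 fibroblast markers or 3 prostate luminal markers was called, with log2 fold changes between -0.14 and 0.31.

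The 250 bases before the start of a gene are printed below, 5′ to 3′ on the strand of the gene, for MUC1, the mucin that changed, for MUC4, a mucin that did not pass the test, and for GALNT3, the O-glycosylation gene with the largest change. They were taken from RefSeq on GRCh38.p14, at chr1:155192916-155193165 on the minus strand for MUC1, at chr3:195811930-195812179 on the minus strand for MUC4 and at chr2:165794248-165794497 on the minus strand for GALNT3. Capitals mark matches, on either strand, to the TATA box TATAAA, the GC box GGGCGG, the E-box CACCTG and the STAT motif TTCNNNGAA.
MUC1: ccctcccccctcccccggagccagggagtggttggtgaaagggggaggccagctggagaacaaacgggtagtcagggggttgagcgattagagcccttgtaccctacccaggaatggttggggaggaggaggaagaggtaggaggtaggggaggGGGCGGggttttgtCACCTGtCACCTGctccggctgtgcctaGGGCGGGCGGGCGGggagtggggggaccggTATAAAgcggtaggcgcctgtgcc
MUC4: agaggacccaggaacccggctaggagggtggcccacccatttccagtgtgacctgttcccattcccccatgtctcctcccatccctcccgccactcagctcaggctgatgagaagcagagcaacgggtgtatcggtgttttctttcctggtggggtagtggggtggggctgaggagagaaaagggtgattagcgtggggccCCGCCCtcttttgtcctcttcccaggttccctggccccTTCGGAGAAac
GALNT3: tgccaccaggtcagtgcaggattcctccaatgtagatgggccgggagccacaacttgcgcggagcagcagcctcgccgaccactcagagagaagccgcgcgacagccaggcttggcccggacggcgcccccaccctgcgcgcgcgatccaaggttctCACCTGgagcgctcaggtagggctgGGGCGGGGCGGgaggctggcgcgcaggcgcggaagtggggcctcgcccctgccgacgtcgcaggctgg
The window of MUC1 held 1 TATA box, which started 24 bases before the gene, 2 E-boxes at 82 and 75 bases and 4 GC boxes, of which 3 overlapped each other. That of GALNT3 held 1 E-box at 93 bases and 2 overlapping GC boxes, and that of MUC4 held 1 GC box and 1 STAT motif. The window of GCNT4, another O-glycosylation gene that was called, held 2 GC boxes and no E-box. That of GCNT3, also called, held none of these motifs. No match to these letters lay in the windows of MUC13 and MUC17, and none was given for MUC15, so 4 of the 5 mucins were matched. Of the 27305 promoter windows of this length, 11.1% held the TATA box, 42.3% the GC box, 17.5% the E-box and 6.78% the STAT motif. The motifs were chosen after the expression values had been seen, and a match is a description of the letters, not a site in use.

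MUC1 was higher in CSC than in DU145 cells, whereas MUC4, MUC13, MUC15 and MUC17 did not pass the test. MUC1 encodes a heavily glycosylated surface protein with a short cytoplasmic tail that takes part in signaling. Its log2 value was 9.48, 9.70, 10.28 and 10.07 on CSC arrays 1 to 4, against 7.78, 7.90 and 8.08 on DU145 arrays 1 to 3. The lowest CSC array lay above the highest DU145 array by more than the spread within either group. The means were 9.88 ± 0.36 in CSC and 7.92 ± 0.15 in DU145 cells (SD, n = 4 and 3), a log2 fold change of 1.96 (standard error [SE] 0.21, 95% confidence interval 1.46 to 2.46, limma adjusted p = 0.0149), or 3.89-fold with an interval of 2.75 to 5.49. The exact two-sided permutation test over the 35 possible divisions of the arrays into 4 and 3 gave p = 0.0286, the smallest it allows. Of the 5 measured mucins, 1 was called higher and 0 lower by limma (also 1 and 0 by an unadjusted p that did not exceed 0.05 and the same fold limit, with and without moderated variances). Over all 14232 genes 1.43% were called in either direction and 1.0% higher, so that 1 of 5 is a count of a single gene. The arrays of CSC and DU145 did not overlap for 1 of the 5 mucins and for 16.5% of all genes. MUC1 is on the list of changed genes that the study drew from these same arrays, so its change is not independent evidence. In bulk RNA, more cells with MUC1 and more MUC1 RNA per cell cannot be told apart.

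The call of MUC1 depended on single arrays although its size did not. It was made without CSC array 1, 3 or 4 or DU145 array 3, with adjusted p-values from limma of 0.0146, 0.0321, 0.0399 and 0.0465. It was lost without CSC array 2 (adjusted p = 0.0507), DU145 array 1 (0.0712) or DU145 array 2 (0.075), each from limma. The log2 fold change ran from 1.82 to 2.09 over these 7 fits.

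**Figure D1:**
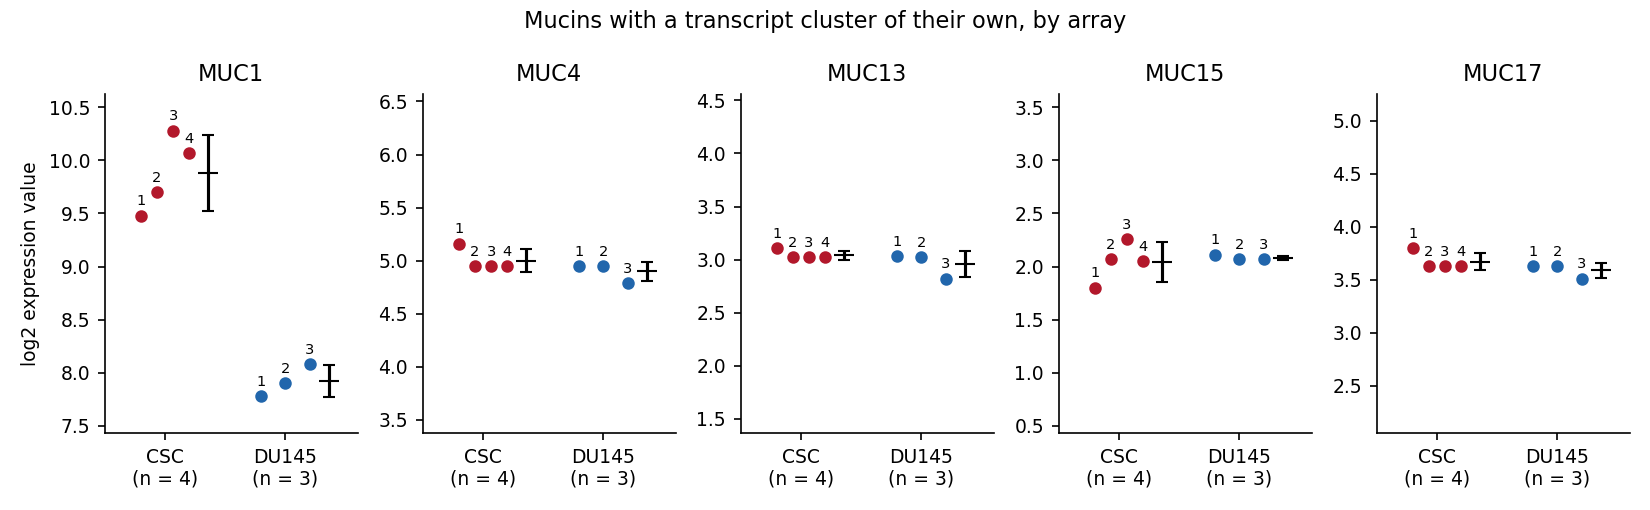
Log2 expression value of the 5 measured mucins on each array (points, with the array number) in CSC and DU145 cells, with the mean and SD of each group beside them; every panel spans the same range of the log2 axis. The CSC arrays lie between 9.48 and 10.28 for MUC1, above all DU145 arrays, and the groups overlap for the other 4 mucins.

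MUC4, a large membrane mucin whose transmembrane subunit can bind ERBB2, had log2 values of 5.16, 4.95, 4.95 and 4.95 on CSC arrays 1 to 4, against 4.95, 4.95 and 4.79 on DU145 arrays 1 to 3. The difference was 0.10 (95% confidence interval -0.10 to 0.31, limma adjusted p = 0.514). MUC17, a membrane mucin of the intestinal brush border, had 3.80, 3.63, 3.63 and 3.63 in CSC, against 3.63, 3.63 and 3.51 in DU145 cells. In both genes CSC array 1 stood above and DU145 array 3 below a value that the other 5 arrays shared exactly. The difference for MUC17 was 0.08 (interval -0.10 to 0.26, limma adjusted p = 0.565). MUC13, a membrane mucin of the gastrointestinal epithelium, ranged from 3.02 to 3.11 in CSC and from 2.82 to 3.03 in DU145 cells, with 4 arrays at 3.02. Its difference was 0.08 (interval -0.10 to 0.27, limma adjusted p = 0.559), and again CSC array 1 was the highest and DU145 array 3 the lowest. MUC15, a smaller membrane-bound member, ranged from 1.80 to 2.26 in CSC and from 2.07 to 2.11 in DU145 cells, a difference of -0.04 (interval -0.30 to 0.23, limma adjusted p = 0.872). Here CSC array 1 was the lowest of the 7 arrays. The intervals of these 4 genes reach at most 0.31 upward and 0.30 downward on the log2 scale, whereas that of MUC1 starts at 1.46. In each of the 4, several arrays shared a value exactly, which lowers the spread, so these intervals may be too narrow. A missed threshold does not show that a gene was equal in CSC and DU145 cells.

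Exactly shared values were common in the table. In 13.4% of the 22011 clusters at least 4 arrays held the same value, and among these clusters CSC array 1 lay above it in 35.3% and DU145 array 3 below it in 32.5%. On the remaining arrays the corresponding shares were 8.30% to 30.0% above (all but CSC array 1) and 7.38% to 19.1% below (all but DU145 array 3). Without CSC array 1 and DU145 array 3, a choice made after the values were seen, the log2 fold change was 0.00 for MUC4 and MUC17, -0.01 for MUC13 and 0.04 for MUC15. That of MUC1 was then 2.17 and did not pass (limma adjusted p = 0.0566). All values of MUC4, MUC13, MUC15 and MUC17 lay below the median of every array. The brightness of a cluster depends on its probes as well as on its RNA and no detection p-values were used here, so whether these RNAs were present was not tested.

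Among the enzymes that build mucin-type O-glycans, 3 rose and none fell. The counts on this and the following lists are to be read beside the 1.43% of all genes called. The lists were also written with earlier results of these arrays known. The sugar chains of mucins are started in the Golgi by the GALNT family, which adds N-acetylgalactosamine to serine or threonine. Of 15 measured GALNT genes, GALNT3 rose and 14 did not pass (median log2 fold change 0.10, which is also the median over all genes). GALNT3 had log2 values of 7.37, 7.26, 7.63 and 6.76 on CSC arrays 1 to 4, against 4.57, 4.20 and 4.65 on DU145 arrays 1 to 3. The log2 fold change was 2.78 (SE 0.22, limma adjusted p = 0.00593), or 6.86-fold, and it was called without each of the 7 arrays in turn. The other GALNT genes lay between -0.50, the value of GALNT2 (limma adjusted p = 0.258), and 0.22.

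Of 21 measured enzymes that build the core, extend or sialylate O-glycans, 2 rose, none fell and 19 did not pass (median 0.04). Both that rose add the branch that turns a simple O-glycan core into a branched one. GCNT1, a further branching enzyme on this list, did not pass (log2 fold change 0.12, limma adjusted p = 0.632), and its arrays overlapped. GCNT3, the mucin-type branching enzyme, had 8.93, 9.32, 9.49 and 8.91 in CSC, against 7.18, 6.50 and 6.97 in DU145 cells, a log2 fold change of 2.28 (SE 0.22, limma adjusted p = 0.0108) that was called without each of the 7 arrays in turn. GCNT4 had 5.78, 6.14, 6.64 and 5.97 in CSC, against 4.81, 4.53 and 4.95 in DU145 cells, a log2 fold change of 1.37 (SE 0.22, limma adjusted p = 0.0395). Its call was made in 2 of the 7 fits that left out an array, those without CSC array 1 and without CSC array 3, and lost in the other 5. C1GALT1, the enzyme that makes the common galactose-containing core, differed by 0.38 on the log2 scale (adjusted p = 0.399), and the extending enzyme B3GNT3 by 0.61 (adjusted p = 0.180, both by limma). The arrays of CSC and DU145 did not overlap for either of them, as for 16.5% of all genes.

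**Figure D2:**
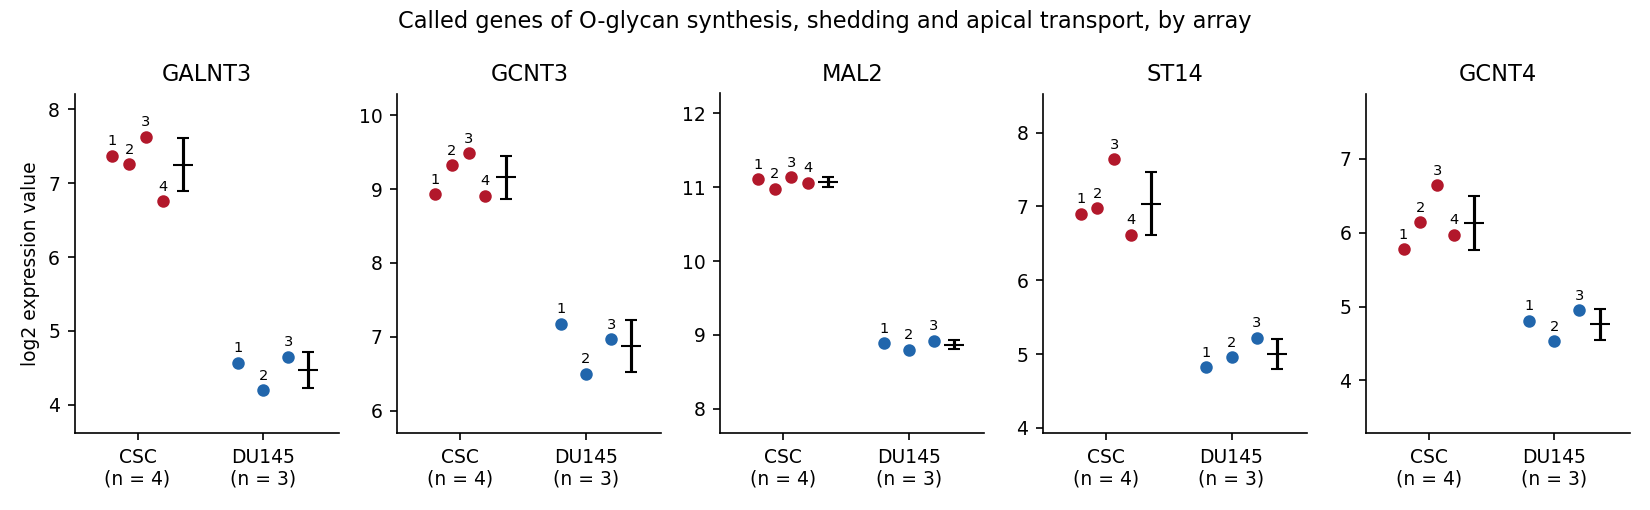
Log2 expression value of 5 genes called on the lists of mucin-related genes, by array (points, with the array number), with the mean and SD of each group beside them; every panel spans the same range of the log2 axis. In all 5 the lowest CSC array lies above the highest DU145 array, and for GALNT3 the CSC arrays run from 6.76 to 7.63 and the DU145 arrays from 4.20 to 4.65. The groups did not overlap for 16.5% of all genes, and genes chosen because they were called are likely to be among them. JUP and KLF4, also called, are not shown.

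None of the genes listed for goblet cells and mucus packaging passed the test. By limma 0 of 18 measured genes of goblet cells, the mucus-secreting cells of the gut and airway, were called (0 also by unadjusted p and fold limit, median 0.11). Their log2 fold changes ran from -0.14 to 0.61. The highest was that of SYTL2, a protein of secretory vesicle docking, at 5.08 in CSC and 4.47 in DU145 cells on average (limma adjusted p = 0.0988). By limma 0 of 10 other measured mucins and mucin-like glycoproteins were called (0 also at the unadjusted threshold, median 0.03, range -0.21 to 0.20). The salivary mucin MUC7 was among these 10, with 4.52, 4.11, 4.20 and 4.20 in CSC and 4.37, 4.20 and 3.69 in DU145 cells.

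Of 11 measured proteases listed for mucin shedding or cleavage, ST14 rose, none fell and 10 did not pass (median 0.06). ST14 encodes matriptase, a membrane serine protease of epithelia that is better known for activating other proteases and growth factors than for cutting mucins. It had 6.90, 6.98, 7.64 and 6.62 in CSC, against 4.82, 4.96 and 5.22 in DU145 cells, a log2 fold change of 2.04 (SE 0.24, limma adjusted p = 0.0215). The call was made without CSC array 1, 3 or 4 and lost without CSC array 2 or any one of the DU145 arrays. MMP14, a membrane metalloproteinase that can release the MUC1 ectodomain, stood at -0.91 on the log2 scale (limma adjusted p = 0.0988), with all CSC arrays below all DU145 arrays. ADAM9 was at -0.23.

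Of 19 measured partners of mucin ectodomains and tails, JUP rose, none fell and 18 did not pass (median 0.15). JUP encodes plakoglobin, a junction protein that can bind the MUC1 tail, and it was also singled out by the study on these arrays. It had 7.66, 8.29, 8.36 and 8.35 in CSC, against 6.14, 6.48 and 6.76 in DU145 cells, a log2 fold change of 1.70 (SE 0.23, limma adjusted p = 0.0263). Without CSC array 1 it was called, and without any other single array it was not. The galectin LGALS3, which binds sugar chains of MUC1, differed by 0.59 on the log2 scale (adjusted p = 0.0684). ERBB3, a receptor of the EGF receptor family, differed by 0.62 (adjusted p = 0.0803, both by limma). The lowest log2 fold changes on this list were those of MET, at -0.44, and EGFR, at -0.39 (limma adjusted p = 0.532 and 0.209). A positive one was found for 16 of its 19 genes, but the median over all genes was also positive, at 0.10.

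Of 16 measured transcription factors known at mucin promoters, KLF4 rose, none fell and 15 did not pass (median 0.21). KLF4, a factor needed for goblet cell maturation in mouse colon, was another gene the study singled out on these arrays. It had 6.91, 6.23, 6.34 and 6.33 in CSC, against 5.40, 5.38 and 5.57 in DU145 cells, a log2 fold change of 1.0 (SE 0.18, limma adjusted p = 0.0495), and the call was lost without any one of the 7 arrays. The epithelial ETS factor EHF had a larger difference and did not pass, at 4.55, 5.74, 5.77 and 6.45 in CSC against 3.33, 3.49 and 3.50 in DU145 cells (log2 fold change 2.19, SE 0.42, limma adjusted p = 0.0576). The spread between the CSC arrays of EHF was wide, with array 1 the lowest, and without that array EHF was called.

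Of 12 measured genes of the ezrin and PDZ scaffolds and of apical transport, MAL2 rose, none fell and 11 did not pass (median 0.11). MAL2 carries membrane proteins to the apical surface of polarized epithelial cells. It had 11.11, 10.98, 11.14 and 11.06 in CSC, against 8.89, 8.80 and 8.92 in DU145 cells, a log2 fold change of 2.20 (SE 0.07, limma adjusted p = 0.000214), and it was called without each of the 7 arrays in turn. The arrays within CSC and within DU145 differed far less than the groups did. MYO5B, a motor of apical recycling vesicles, differed by 1.39 on the log2 scale (adjusted p = 0.0514), and RAB25, a GTPase of the same vesicles, by 1.32 (adjusted p = 0.236, both by limma). The spread of RAB25 was wide, at 5.35, 7.08, 6.87 and 5.35 in CSC against 5.04, 5.08 and 4.42 in DU145 cells. MYO5B was called without CSC array 4. Across all 8 lists, 7 of 121 distinct genes were called higher and 0 lower by limma (10 and 0 by unadjusted p and fold limit), or 5.79% against 1.43% of all genes. The lists were written with earlier results of these arrays known, so this share is not independent of them.

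**Figure D3:**
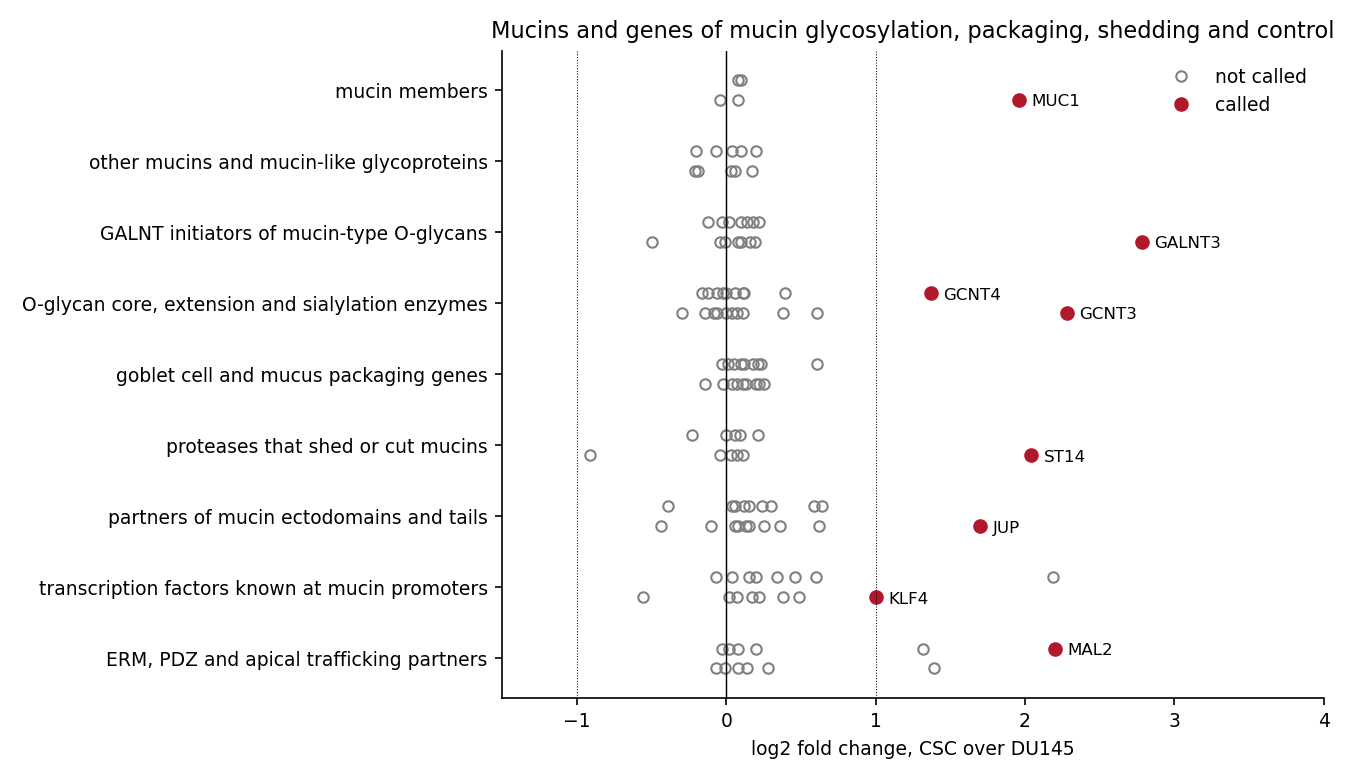
Log2 fold change of CSC over DU145 for the 5 measured mucins and for the genes of 8 related lists, 1 point per gene, with filled points for called genes and dotted lines at the fold limit of 1. Called genes lie between 1.0 (KLF4) and 2.78 (GALNT3), and no gene on these lists was called lower.

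The profile of MUC1 over the 7 arrays was compared with that of every other gene by the root-mean-square difference of their log2 values, each gene being first centred on its own mean. Over 14231 genes this difference had a median of 0.97, and the 5 smallest were 0.13 for IL20RB, 0.17 for NUPR1, 0.21 for EGLN3, 0.21 for JUP and 0.22 for SPINT1. IL20RB, a subunit of receptors for cytokines of the interleukin 10 family, had 6.91, 7.28, 7.66 and 7.38 in CSC, against 5.49, 5.24 and 5.50 in DU145 cells, a log2 fold change of 1.90. NUPR1, a small nuclear protein induced by stress, also had a log2 fold change of 1.90. EGLN3, a prolyl hydroxylase of the hypoxia response, had one of 2.04. SPINT1, a membrane inhibitor of matriptase, had one of 1.66. These 5 genes were called, but not equally firmly. With each array left out in turn, NUPR1 was called in 7 of 7 fits, IL20RB in 5, EGLN3 in 2, JUP in 1 and SPINT1 in 0. In all 6 genes CSC array 1 held the lowest value of the CSC arrays. The highest was CSC array 3 in MUC1, IL20RB, JUP and SPINT1 and CSC array 4 in EGLN3 and NUPR1. Because the measure is dominated by the step between CSC and DU145 cells, which all of these genes share, it describes likeness over these 7 arrays only.

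**Figure D4:**
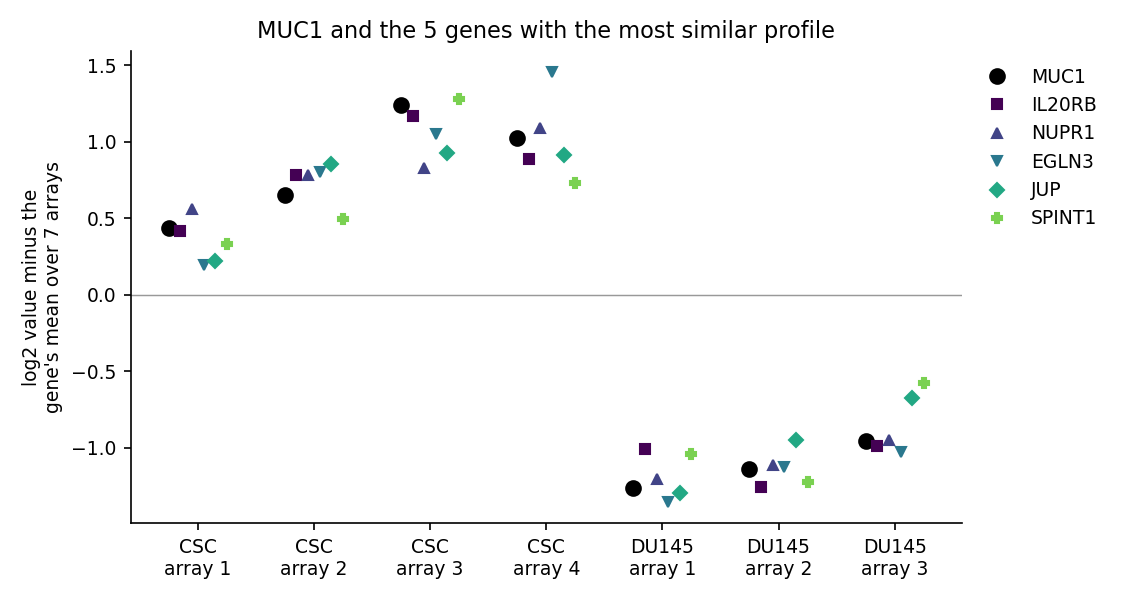
Log2 value minus the mean of the gene over the 7 arrays, for MUC1 and the 5 genes with the most similar profile, by array. All 6 genes lie above their mean on every CSC array and below it on every DU145 array.

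The mucins lie on chromosomes 1 (MUC1), 3 (MUC4 and MUC13), 7 (MUC17) and 11 (MUC15), and the 5 nearest protein-coding genes on each side were taken from the RefSeq gene order. Around MUC1, 9 of 10 neighbours had a cluster of their own. The adjacent genes TRIM46 and THBS3 had log2 fold changes of 0.14 and -0.12 (limma adjusted p = 0.393 and 0.634), and the largest was that of SLC50A1, a sugar transporter, at 1.07 (limma adjusted p = 0.105). By limma 0 of 39 measured neighbours of the 5 mucins were called, while 2 passed by unadjusted p and fold limit. UFSP1, a neighbour of MUC17, was the only one whose adjusted p was below the threshold, and it missed the fold limit. It had 5.59, 5.68, 5.62 and 5.66 in CSC, against 5.11, 5.18 and 5.13 in DU145 cells, a log2 fold change of 0.50 (SE 0.06, limma adjusted p = 0.0207). Around MUC4, MUC13, MUC15 and MUC17 the neighbours ran from -0.68 to 1.01.

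**Figure D5:**
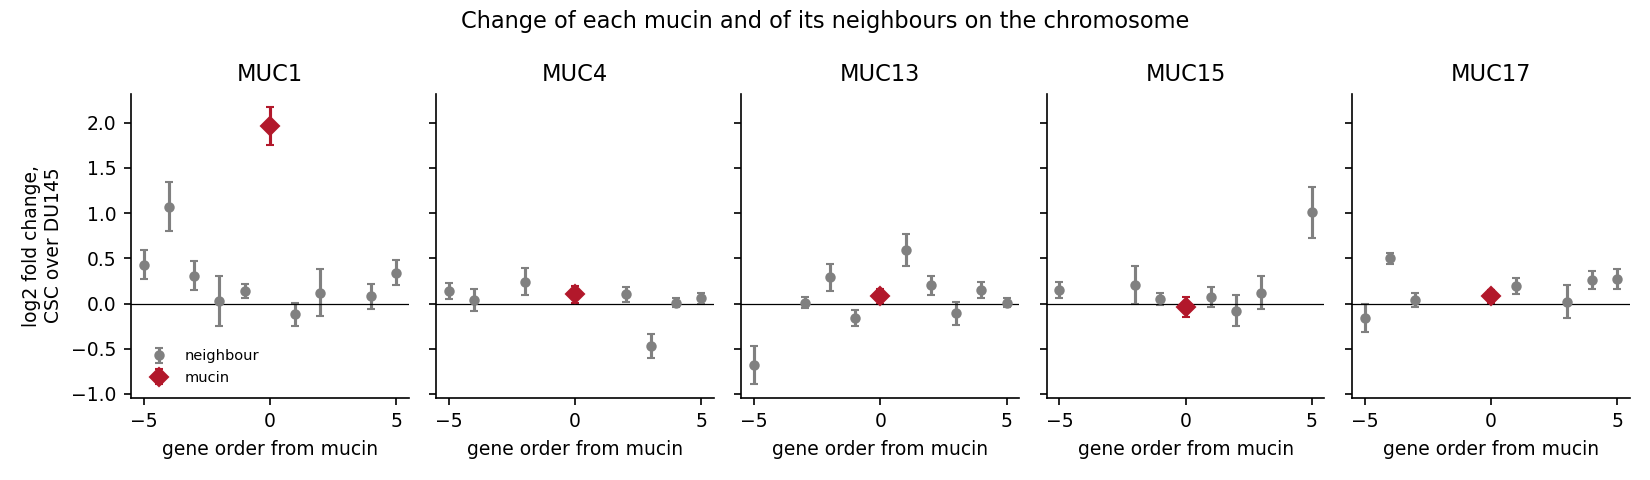
Log2 fold change of CSC over DU145 with the standard error of the limma fit for each measured mucin (diamond) and for up to 5 measured neighbours on each side, in gene order along the chromosome. MUC1, at 1.96, stands above its 9 measured neighbours, which run from -0.12 to 1.07.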

How the data were processed

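The authors normalized the exon arrays by the quantile sketch method and summarized probes to gene level with Robust Multichip Average. What they deposited are log2 values of 22011 clusters, from 0.24 to 13.79. The genome build was not given in the sources used here. Exon-level values were not analysed here. Clusters were named through the platform annotation table, 14432 of them by 1 symbol, and a gene with several clusters was read from the brightest. Cross-hybridization between related mucins was not tested.

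CSC and DU145 cells were compared in a linear model of all 7 arrays (limma 3.58.1 in R 4.3.3) without covariates, with moderated variances, and p-values were adjusted over all clusters by Benjamini-Hochberg. The fit was checked on simulated data. Errors are SD, or the standard error and 95% confidence interval of the model. The number of arrays limits the precision. Same-numbered arrays were not treated as pairs. The mucins, lists and rules were chosen with earlier results of these data known. All mucins were named, with values by array for those called or not overlapping, up to 4 called genes and 2 more per list, the 5 genes most like MUC1, and CD44 and CD24. Array values of other genes, motifs and chromosomal neighbours were added after the values were seen. Alternatives covered thresholds, filtering, scaling, moderation, weighting of arrays, omission of arrays, a replicate block, and an unpaired t-test. For the arrays the authors used moderated statistics with false discovery rate correction, as here, and their methods name the t-test only for other measurements.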

Additional observations from a re-analysis of the deposited data

Results flagged for a closer look

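In CSC, array 1 lay far from arrays 2 to 4 for several genes, measured as its gap to the nearest of the others divided by the range of the group. This share was 1.0 for MUC4, for MUC13 and for MUC17, where CSC array 1 was the highest, at 5.16, 3.11 and 3.80, and arrays 2 to 4 held 1 value. It was 0.902 for JUP, where CSC array 1 was the lowest at 7.66, and 0.843 for KLF4, where CSC array 1 was the highest at 6.91. Of 16 genes examined 5 exceeded the limit. About 1 group in 20 exceeds it by chance where no values are shared, and these genes are not independent of each other. For MUC4, MUC13 and MUC17 that rate does not apply, because arrays 2 to 4 held 1 value. The share is then 1.0 however little array 1 differs.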

How the results depend on the processing

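MUC1 was higher in CSC under all 19 alternatives, with log2 fold changes of 1.82 to 2.17, and was called in 12. Settings that changed only the threshold, filter, moderation or test could not move its 1.96, because the group means stayed the same. MUC1 has 1 cluster, so with the mean of the clusters of a gene it only repeated the main fit. It was not called under a stricter adjusted p of 0.01 (1.96), by an unpaired t-test, which the study did not name for the arrays (1.96, adjusted p = 0.0717), or in the fit without CSC array 1 and DU145 array 3 (2.17). Under these 3 settings 0 mucins were called, 2, 2 and 2 genes on the 8 lists, and 48, 44 and 107 clusters, against 286 in all. The adjusted p of MUC1 was 0.00206 to 0.0972 over the alternative fits. When each array was left out in turn, 0 to 1 mucins, 3 to 7 genes on the lists and 56 to 279 clusters were called. Fewest clusters passed without DU145 array 1 (56) or 2 (59), then without CSC array 2 (86), DU145 array 3 (129) or CSC array 3 (136). The total was 957 by unadjusted p, 450 with no fold limit, 430 after quantile normalization and 495 with array weights. The sign of MUC15 turned without CSC array 1 (0.04, range -0.11 to 0.04 when each array was left out) and without both arrays (0.04), and that of MUC13 only without both (-0.01, range 0.02 to 0.12 when each was left out). MUC4 and MUC17 did not change sign. The cause of these shifts was not tested.

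Same-numbered CSC and DU145 arrays correlated at 0.07, -0.01 and 0.05 in their deviations from the group means. Differently numbered arrays correlated at -0.1 to 0.05. Such small values cannot decide whether the numbers pair the arrays, and the sample titles do not say. With the replicate block, MUC1 stood at 1.90 (limma adjusted p = 0.0972), and 0 mucins, 0 listed genes and 0 clusters were called, while 386 clusters were higher and 613 lower by unadjusted p and fold limit.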
